A study of Mus musculus with 8 samples.

Results

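The genes that write, maintain and remove DNA methylation were followed across 8 libraries of newly made RNA from E14 mouse embryonic stem cells. In every library new RNA was labelled with 400 µM 4-thiouridine for 15 min. The set of genes was fixed by name as Dnmt1, Uhrf1, Dnmt3a, Dnmt3b, Dnmt3l, Tet1, Tet2, Tet3 and Tdg. All 9 were present among the 16940 genes of the table, and 8 of them had a mean of at least 10 normalized reads over the 8 libraries and were tested. Only Dnmt3l fell below that minimum. In these cells the chromatin loop anchor protein CTCF carries an auxin-inducible degron (AID), so that the auxin IAA removes the tagged protein. The 4 groups were the control overexpression line with no IAA, the same line treated with IAA for 12 h, and 2 rescue lines with the same 12 h treatment, of which one overexpresses wild-type CTCF and the other CTCF with a mutation that the labels leave unnamed. Every group had 2 replicates and carried the degron. No line without the degron was treated with IAA, so an effect of IAA itself cannot be told apart from that of CTCF loss. Neither rescue line was measured without IAA, so a difference between a rescue line and the control cannot be told apart from a difference between the lines themselves. The labels do not give the promoter of the overexpressed CTCF, whether a line is 1 clone, or whether replicates came from separate cultures, so p-values measure the spread between these libraries, which may be technical. Because the degron acts on the protein, RNA levels do not check the depletion.

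Methylation of cytosine in CpG dinucleotides is kept through cell division by DNMT1, which UHRF1 brings to hemimethylated DNA behind the replication fork. DNMT3A and DNMT3B methylate DNA de novo, and DNMT3L, a relative without catalytic activity, stimulates them. TET1, TET2 and TET3 oxidize methylcytosine, and the glycosylase TDG excises the more oxidized forms so that base excision repair can restore cytosine. Binding of CTCF to part of its sites is known to be blocked by methylation. The cells were grown without serum, with LIF, 1 µM of the MEK inhibitor PD0325901 and 3 µM of the GSK3 inhibitor CHIR99021, a medium in which embryonic stem cells are known to have low DNA methylation.

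The promoters of the de novo methyltransferases are shown because Dnmt3a and Dnmt3b moved in opposite directions when IAA was added. Sequences are from RefSeq on GRCm38.p6 and run 5′ to 3′ on the gene's strand up to 250 bases before a start. The part of each window outside annotated exons is printed, with GC boxes (GGGCGG on either strand) in capitals. Both genes are on the plus strand. In RefSeq, Dnmt3a has 2 upstream starts and an internal start that gives the shorter isoform known from embryonic stem cells. The GENCODE M21 annotation, used below for positions, begins Dnmt3a further upstream, at 3806007, so the Dnmt3a windows lie inside the gene as placed there. The counts are per gene and do not separate the starts.
Dnmt3a before the first upstream start, chr12:3806730-3806979: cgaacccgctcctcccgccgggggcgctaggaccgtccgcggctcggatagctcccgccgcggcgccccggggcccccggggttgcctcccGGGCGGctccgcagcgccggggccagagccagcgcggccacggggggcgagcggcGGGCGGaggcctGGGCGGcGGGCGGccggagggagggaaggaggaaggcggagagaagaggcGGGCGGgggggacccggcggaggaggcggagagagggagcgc
Dnmt3a before the internal start, chr12:3891494-3891727: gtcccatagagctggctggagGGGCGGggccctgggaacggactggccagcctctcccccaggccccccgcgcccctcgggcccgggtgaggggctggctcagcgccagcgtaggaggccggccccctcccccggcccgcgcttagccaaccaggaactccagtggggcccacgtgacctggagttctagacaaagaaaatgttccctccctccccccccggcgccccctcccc
Dnmt3b, chr2:153649199-153649410: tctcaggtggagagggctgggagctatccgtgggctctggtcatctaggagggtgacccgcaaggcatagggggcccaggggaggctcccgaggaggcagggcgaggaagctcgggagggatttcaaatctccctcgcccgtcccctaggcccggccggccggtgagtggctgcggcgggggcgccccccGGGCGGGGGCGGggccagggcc

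The window before the first upstream Dnmt3a start held 5 GC boxes and 38 CpG dinucleotides, more CpG than 98.1% of 32817 promoter windows, whose median was 6. The window before the internal start held 1 GC box and 15 CpG, and that of Dnmt3b held 3 GC boxes and 21 CpG. The box 12 bases before the Dnmt3b start lies outside the part printed above. A GC box was found in 11 of the 16 windows of the 9 genes and in 32.72% of all windows. The 16 are not separate, since the 2 upstream Dnmt3a windows overlap and share a GC box. The difference was not tested or adjusted for CpG content. Tdg was the gene without one. The core of the CTCF motif was searched on both strands as CC, 3 bases of any kind, AG, 2 bases of any kind and GGC, which 7.16% of all windows hold. It was found in 1 of the 16 windows, between the 2 upstream starts of Dnmt3a at chr12:3807012-3807041. The core is printed in capitals with its neighbouring bases, and GC boxes among those are left in lower case.
CTCF core letters at Dnmt3a: gcgggcgggCCGGGAGGCGGCgcgggcggc
A match of letters is no measured binding site, and its absence from a window says nothing about CTCF binding near the gene.

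Libraries held 15671114 to 21561141 recovered reads, and a normalized read, the unit used below, stood for about 1 read (0.836 to 1.19 normalized reads per read). Replicates correlated across genes at Pearson's r of 0.995 to 0.996. A chi-square of reads per degree of freedom was 1.33 to 1.64 in the other groups and 3.39 between the wild-type CTCF libraries, so the latter differed most. The reads of mutated CTCF replicate 2, which enter the value of 1.64, are estimates because its scaling step lies near 1. Replicate 2 was higher than replicate 1 for 8 of the 9 genes in the wild-type CTCF group and for 9 of 9 in the untreated control, 6 with mutated CTCF and 4 in the control with IAA. Embryonic stem cell identity was checked with 8 markers, all of which were present, for example Nanog at 5172 to 6824 and Esrrb at 13725 to 16985 normalized reads. Of markers for other cell types, 4 of 6 for primitive endoderm, 3 of 5 for primed epiblast and neural cells, 2 of 4 for mesoderm, 2 of 4 for trophectoderm, 1 of 5 for 2-cell-like cells and 0 of 5 for fibroblasts or feeders were among the genes analysed. The highest summed level of any of these lists in a library was 897, for trophectoderm, against at least 50301 for the stem cell list.

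Levels of different genes are compared per kb of exon, with the gene lengths of GENCODE M21. Over the 8 libraries Tet1 was highest, at a mean of 968 normalized reads per kb of exon (range 878 to 1052). Uhrf1 followed at 638 (533 to 732) and Tet2 at 604 (560 to 669), and the ranges of these neighbours overlapped. Dnmt1 stood at 353 (312 to 423) and Tdg at 175 (167 to 185). The de novo enzymes were lower, with Dnmt3b at 116 (90.7 to 142) and Dnmt3a at 46.3 (41.1 to 53.7), on either side of Tet3 at 64.5 (56.4 to 67.95). Dnmt3l was close to the floor at 2.08 (0.662 to 3.58). The order of means was the same per kb of gene body, where in addition Tet1 overlapped Uhrf1 and Tet2, and Dnmt1 overlapped Tdg. Whether the authors counted exons or whole genes is not given in the sources used here.

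**Figure D1:**
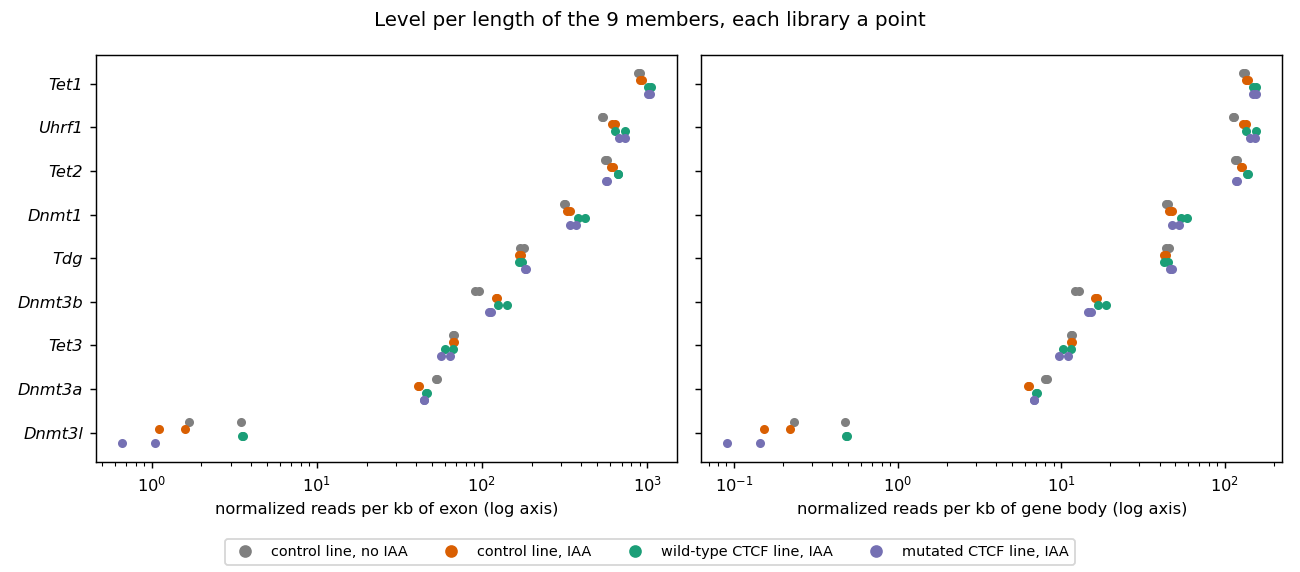
Level of each gene in each library, as normalized reads per kb of exon (left) and per kb of gene body (right), on log axes. Points are single libraries coloured by group. Tet1, Uhrf1 and Tet2 lie highest and Dnmt3l lowest, at 0.662 to 3.58 normalized reads per kb of exon.

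Adding IAA to the control line is meant to deplete CTCF, and any effect of IAA itself is included. With IAA in this line, Dnmt3b, Uhrf1 and Tet2 rose and Dnmt3a fell. These are 4 of the 8 tested genes, against 37.7% of all tested genes called in this comparison (19.4% higher and 18.4% lower). The ratio of group means was 1.31 for Dnmt3b and 0.781 for Dnmt3a. The median absolute log2 fold change of the 8 was 0.0999, against 0.195 over all 15818 tested genes. The 2 groups' libraries did not overlap for 6 of the 8, and for 68.2% of all tested genes. The primitive endoderm markers summed to 195 to 228 normalized reads without IAA and 269 to 331 with IAA, and their part in these changes was not tested. All calls are from limma on log2(normalized reads + 1), with Benjamini-Hochberg adjustment over all tested genes and a threshold of 0.05.

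In the wild-type CTCF line compared with the IAA-treated control line, 5 of 8 passed and all were higher, against 31.6% of all tested genes in either direction and 21.5% higher. These were Dnmt1, Tet1, Tet2, Uhrf1 and Dnmt3a. This count depended on the scale: after median-of-ratios rescaling, which moved the median of all genes by -0.056 (log2), Dnmt1 and Tet1 were still called higher and Tet3 was called lower. It was also 3 without any 1 of the untreated control libraries, the control libraries with IAA or wild-type CTCF replicate 2. Without limma's mean-variance trend it was 0. Under mutated CTCF against the control with IAA, 4 of 8 passed, against 34.3% of all tested genes (22.0% higher and 12.4% lower), with Tet1 and Uhrf1 higher and Tet2 and Tet3 lower. Without replicate 2 of the control with IAA, 1 passed, and without the mean-variance trend 0 passed. Between mutated and wild-type CTCF, 3 of 8 passed and all were lower with mutated CTCF, namely Dnmt3b, Tet2 and Dnmt1, against 34.7% of all tested genes (16.3% higher and 18.4% lower). Compared with the untreated control, 6 of 8 differed with wild-type CTCF (43.2% of all tested genes, 27.6% higher and 15.6% lower) and 6 of 8 with mutated CTCF (37.8%, 24.0% higher and 13.7% lower). The latter count was 3 without untreated control replicate 1. Non-overlapping libraries were found for 6, 7, 5, 7 and 7 of the 8 genes in these 5 comparisons, against 64.4%, 65.1%, 65.5%, 71.5% and 67.9% of all tested genes. In the same order, the median absolute log2 fold changes of the 8 were 0.125, 0.123, 0.0845, 0.222 and 0.192. Over all tested genes they were 0.175, 0.181, 0.183, 0.220 and 0.191. All shares of tested genes given here are from the main fit and do not apply to counts under other settings. These comparisons share libraries with one another, so their calls are not independent.

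**Figure D2:**
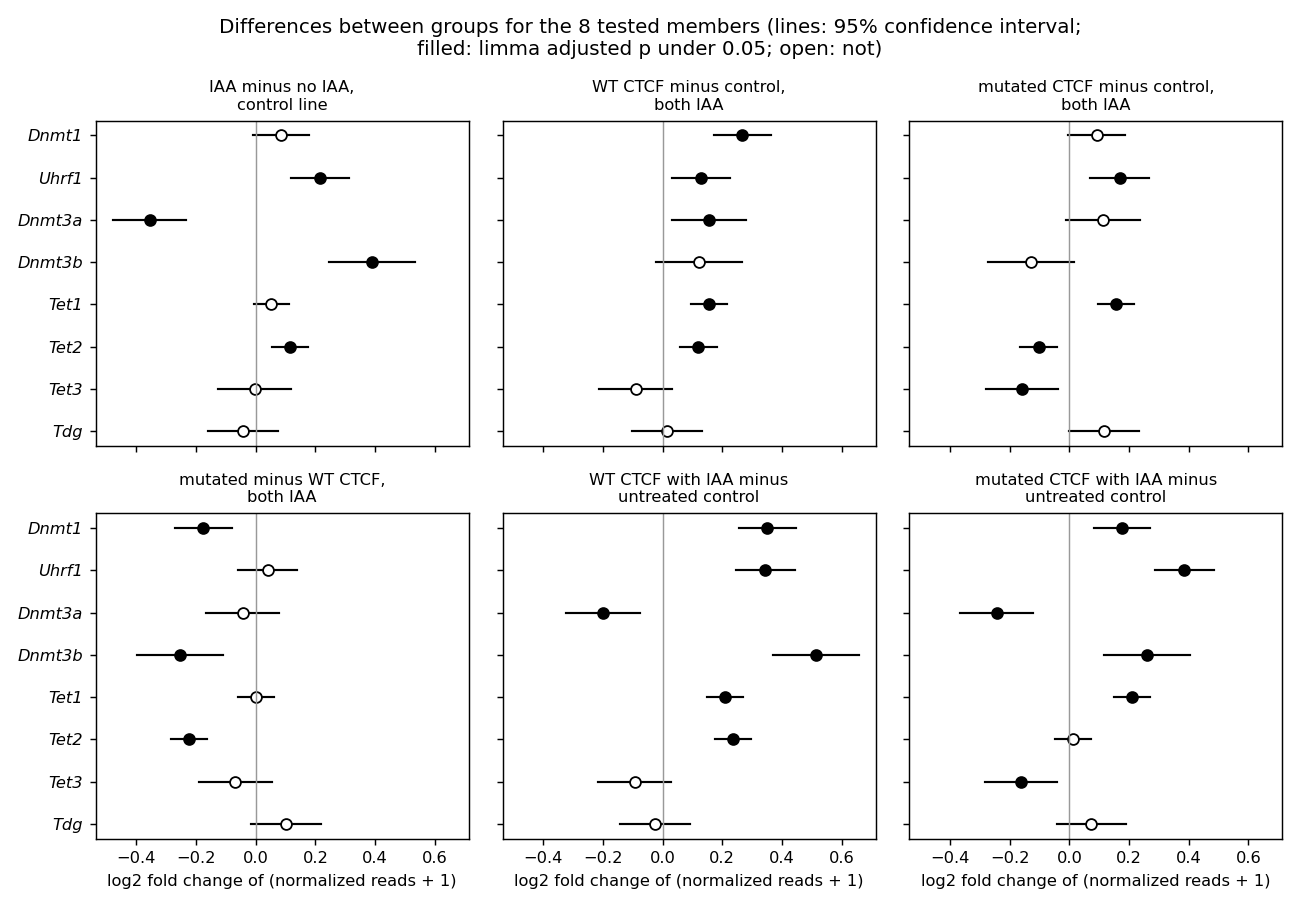
Log2 fold change of (normalized reads + 1) for the 8 tested genes in 6 comparisons, with 95% confidence intervals from the limma fit and filled points for an adjusted p under 0.05. Dnmt3a and Dnmt3b lie on opposite sides of 0 in the IAA panel, at -0.36 and 0.39.

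Among the maintenance genes, Uhrf1 (ENSMUSG00000001228.14, chromosome 17, 56303321 to 56323486, GRCm38, protein-coding) encodes the protein that reads hemimethylated DNA. It had 2270 and 2312 normalized reads in the untreated control and 2715 and 2608 after IAA. The wild-type CTCF libraries stood at 2714 and 3119 and the mutated CTCF libraries at 2876 and 3110. The untreated libraries were thus the lowest and overlapped no other group. Uhrf1 rose with IAA by 0.22 on the log2 scale (SE 0.049, limma adjusted p = 4.4e-04). Without limma's mean-variance trend Uhrf1 did not pass for IAA, or for mutated CTCF against the control with IAA. The fold changes were the same there (adjusted p = 0.11 and 0.20). Against the control with IAA it was higher with mutated CTCF by 0.17 (SE 0.049, adjusted p = 0.0059), which was 0.14 without replicate 2 of the control with IAA and 0.11 without mutated CTCF replicate 2 (adjusted p = 0.097 and 0.15). With wild-type CTCF it was higher by 0.13 (SE 0.049, adjusted p = 0.040), but the libraries overlapped, and the call was kept in 9 of 20 alternatives and lost after both rescalings (median of ratios and equal totals). Without wild-type CTCF replicate 2 the value was 0.028 (adjusted p = 0.76), and without its replicate 1 it was 0.23 (adjusted p = 2.2e-04). The CTCF forms were not called different at Uhrf1 (log2 fold change 0.04, 95% interval -0.058 to 0.14), though without wild-type CTCF replicate 2 the difference was 0.14 (adjusted p = 0.034). Both lines were above the untreated control, by 0.34 with wild-type and 0.38 with mutated CTCF (adjusted p = 2.4e-07 and 2.8e-08).

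Dnmt1 (ENSMUSG00000004099.16, chromosome 9, 20907209 to 20959888), the maintenance methyltransferase, had 2304 and 2359 normalized reads without IAA and 2518 and 2425 with IAA. It had 2833 and 3121 with wild-type CTCF and 2515 and 2756 with mutated CTCF. The wild-type CTCF libraries were above all others. The change with IAA did not pass (log2 fold change 0.084, 95% interval -0.011 to 0.18, adjusted p = 0.16). Dnmt1 was higher in the wild-type CTCF line than in the IAA-treated control by 0.27 (SE 0.047, adjusted p = 2.4e-05), and lower with mutated than with wild-type CTCF by -0.18 on the log2 scale (SE 0.047, adjusted p = 0.0032). The latter became -0.11 without wild-type CTCF replicate 2 and -0.11 without mutated CTCF replicate 1 (adjusted p = 0.14 and 0.15). Without limma's mean-variance trend Dnmt1 passed in neither comparison, at the same fold changes (adjusted p = 0.064 and 0.14). Against the untreated control it was higher with wild-type CTCF by 0.35 and with mutated CTCF by 0.18 (adjusted p = 8.0e-08 and 0.0027). For mutated CTCF this was not called with equal totals (0.092, adjusted p = 0.066), without untreated control replicate 1 (0.16, adjusted p = 0.050) or without mutated CTCF replicate 2 (0.11, adjusted p = 0.14). Nor was it called without the mean-variance trend (0.18, adjusted p = 0.13). Against the control with IAA, Dnmt1 with mutated CTCF was not called different (0.091, adjusted p = 0.13), but it was without mutated CTCF replicate 1 (0.16, adjusted p = 0.028). Some genes listed as markers of other cell types were also higher in the wild-type CTCF line. The 2 trophectoderm genes analysed summed to 807 to 897 normalized reads there, against 554 to 568 in the untreated control, 609 to 642 with IAA and 573 to 601 with mutated CTCF. A single gene made up nearly all of this sum, with a highest value of 879. The 2 mesoderm genes analysed summed to 89.2 to 93.1 there, against 51.0 to 69.0, 44.0 to 60.7 and 42.8 to 59.3 in the same order, and 1 of them had a mean of at least 10, with a highest value of 82.4. The 1 gene analysed of the 2-cell-like list, with a mean below 10, was at 11.8 to 15.7 there. In the other groups it was at 4.18 to 6.90, 3.30 to 3.57 and 3.95 to 5.22 in the same order. The part of these markers in the differences of the wild-type CTCF line, at Dnmt1 and the other genes, was not tested.

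**Figure D3:**
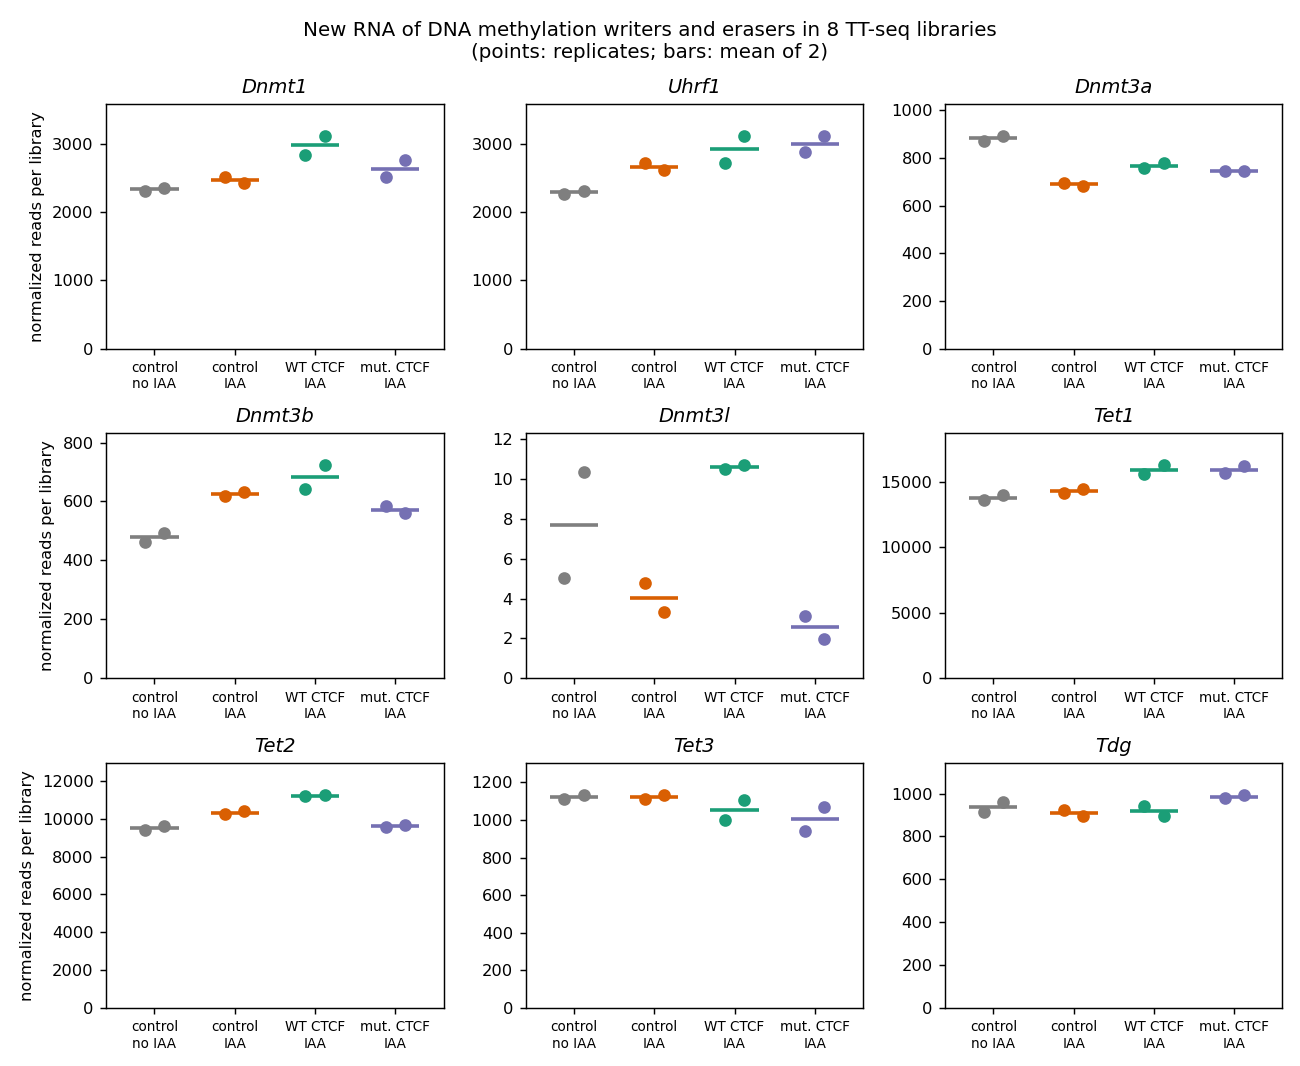
Normalized reads of each of the 9 genes by group, with 1 point per library and a bar at the mean of 2 replicates; every vertical axis starts at 0. Dnmt3a is highest and Dnmt3b lowest in the untreated control, and Tet2 with mutated CTCF lies at 9555 and 9692, beside the untreated control.

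Of the de novo genes, Dnmt3b (ENSMUSG00000027478.15, chromosome 2, 153649450 to 153687730) had 463 and 492 normalized reads without IAA and 619 and 634 with IAA. It had 643 and 723 with wild-type CTCF and 583 and 562 with mutated CTCF. The untreated libraries were below all others and the wild-type CTCF libraries above all others. Dnmt3b rose with IAA by 0.39 on the log2 scale (SE 0.071, adjusted p = 2.4e-05), from 478 ± 21 to 626 ± 9.99 (SD, n = 2 libraries, as in all such values). Neither CTCF form was called different from the control with IAA at this gene. The estimate was 0.12 for wild-type (95% interval -0.022 to 0.27) and -0.13 for mutated CTCF (-0.27 to 0.014), and the latter passed after median-of-ratios rescaling and with equal totals. Mutated CTCF was lower than wild-type CTCF by -0.25 (SE 0.071, adjusted p = 0.0051), which became -0.17 (adjusted p = 0.14) without wild-type CTCF replicate 2. Without limma's mean-variance trend this difference did not pass, at the same -0.25 (adjusted p = 0.063). Compared with the untreated control, Dnmt3b stayed higher in both lines, by 0.51 with wild-type and 0.26 with mutated CTCF (adjusted p = 1.7e-07 and 0.0033). The latter had an adjusted p of 0.078 without untreated control replicate 1 and of 0.052 without the mean-variance trend.

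Dnmt3a (ENSMUSG00000020661.15, chromosome 12, 3806007 to 3914443) went the other way with IAA. It had 871 and 894 normalized reads without IAA and 694 and 684 with IAA, followed by 758 and 778 with wild-type CTCF and 746 and 743 with mutated CTCF. No pair of groups overlapped: the untreated control was highest and the control with IAA lowest. Dnmt3a fell by 0.36 on the log2 scale with IAA (SE 0.061, adjusted p = 9.2e-06), from 882 ± 16 to 689 ± 7.3. Under wild-type CTCF it was 0.16 higher than in the control with IAA (SE 0.061, adjusted p = 0.048), a call that was kept in 6 of 20 alternatives (0.099 after median-of-ratios rescaling, adjusted p = 0.17). With mutated CTCF the difference was 0.11 (95% interval -0.012 to 0.24, adjusted p = 0.16). Both lines remained below the untreated control, by log2 fold changes of -0.20 with wild-type (adjusted p = 0.0073, or 0.072 without untreated control replicate 2) and -0.24 with mutated CTCF (adjusted p = 0.0014). The CTCF forms were not called different (log2 fold change -0.044, 95% interval -0.17 to 0.080).

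The ratio of Dnmt3b to Dnmt3a within a library does not depend on how libraries are scaled. It was 0.532 and 0.551 in the untreated control, 0.892 and 0.926 with IAA, 0.848 and 0.930 with wild-type CTCF and 0.782 and 0.755 with mutated CTCF. The untreated libraries were lowest, and the mutated CTCF libraries lay between them and the other IAA libraries. This ratio and the other ratios given below were chosen after the values had been seen and carry no test.

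**Figure D4:**
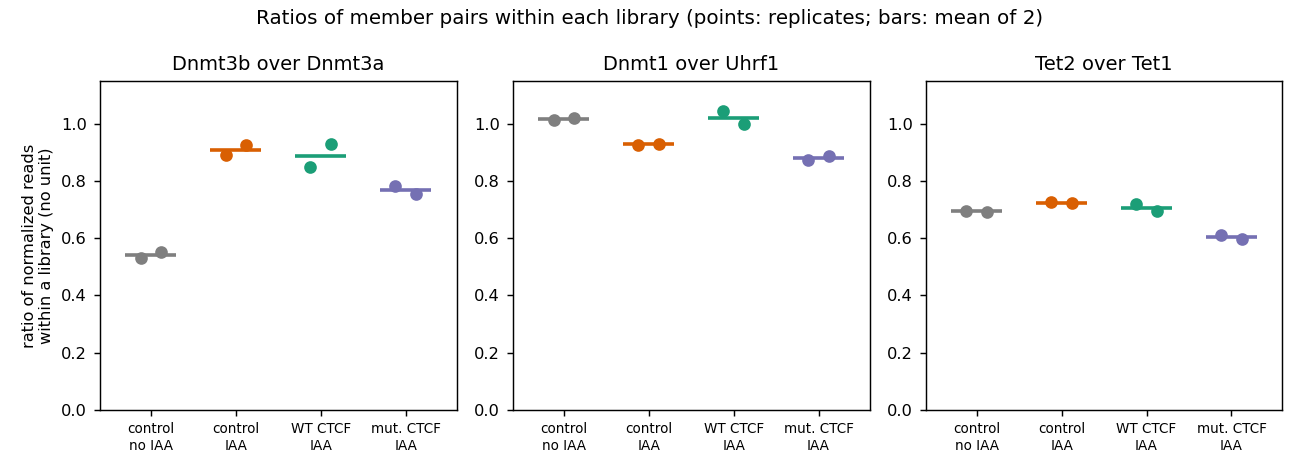
Ratio of normalized reads of gene pairs within each library (no unit), with 1 point per replicate and a bar at the mean of 2; axes start at 0. Dnmt3b over Dnmt3a is 0.532 and 0.551 in the untreated control and at least 0.755 in every library with IAA.

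Dnmt3l (ENSMUSG00000000730.13, chromosome 10, 78041947 to 78063622), the catalytically inactive partner of the de novo enzymes, was at 5.02 and 10.3 normalized reads without IAA and at 4.76 and 3.30 with IAA. It was at 10.5 and 10.7 with wild-type CTCF and at 3.13 and 1.98 with mutated CTCF. These values rest on 3 to 12 recovered reads per library, and on an estimated 2 in mutated CTCF replicate 2, so the gene was not in the main test. In the fit without a filter on low values, the log2 fold change of mutated against wild-type CTCF was -1.72 (limma adjusted p = 0.011), and the other 5 comparisons had an adjusted p of 0.068 to 0.51. Aire, a gene on the opposite strand that overlaps Dnmt3l, was at 1.67 to 17.5 normalized reads. The libraries are strand-specific, but the strand setting used for counting is not given in the sources used here, so reads of the 2 genes may not be told apart. The 3 primed epiblast and neural markers analysed, of which a single gene reached 437, summed to 439 to 466 normalized reads without IAA, 392 to 403 with IAA, 518 to 525 with wild-type CTCF and 290 to 298 with mutated CTCF. Their part in the levels of Dnmt3b and Dnmt3l was not tested. In RNA from whole cultures, fewer cells of a type and less RNA per cell cannot be told apart.

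Among the oxidation genes, Tet2 (ENSMUSG00000040943.12, chromosome 3, 133463679 to 133545139) separated the CTCF forms most clearly. It had 9439 and 9652 normalized reads without IAA and 10252 and 10430 with IAA. It had 11194 and 11282 with wild-type CTCF and 9555 and 9692 with mutated CTCF, so the mutated CTCF libraries overlapped the untreated control and no other group. Tet2 rose with IAA by 0.12 (SE 0.030, adjusted p = 0.0021), or by 0.064 with equal totals (adjusted p = 0.030). Against the control with IAA it was 0.12 higher with wild-type CTCF (adjusted p = 0.0020; 0.064 and not called after median-of-ratios rescaling) and lower with mutated CTCF, by a log2 fold change of -0.10 (adjusted p = 0.0061). The latter did not pass without replicate 2 of the control with IAA or mutated CTCF replicate 1 (adjusted p = 0.079 and 0.083). Without limma's mean-variance trend none of these changes passed, at the same fold changes (adjusted p = 0.10, 0.11 and 0.14 in the order given). Mutated CTCF was below wild-type CTCF by -0.22 (SE 0.030, adjusted p = 1.4e-07), a call kept in all 18 alternatives run. Wild-type CTCF was 0.24 above the untreated control (adjusted p = 3.0e-08), or 0.15 with equal totals, still called. The difference between mutated CTCF and the untreated control was 0.012 (95% interval -0.049 to 0.073, adjusted p = 0.79), and it was -0.072 and called lower with equal totals (adjusted p = 0.017). Gm42567, an antisense gene that overlaps Tet2, was at 54.3 to 96.2 normalized reads.

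Tet1 (ENSMUSG00000047146.17, chromosome 10, 62804570 to 62908996) had the highest mean of the 9 per kb of exon and per kb of gene body. It had 13569 and 13945 normalized reads without IAA and 14095 and 14446 with IAA. Tet1 had 15548 and 16255 with wild-type and 15623 and 16181 with mutated CTCF. Both rescue lines were above both control groups and overlapped each other. The change with IAA did not pass (log2 fold change 0.053, 95% interval -0.0071 to 0.11, adjusted p = 0.16). Against the control with IAA, Tet1 was higher by 0.16 with either CTCF form (SE 0.030, adjusted p = 7.7e-05 for wild-type and 5.6e-05 for mutated CTCF), and after median-of-ratios rescaling by 0.0997 with wild-type and 0.10 with mutated CTCF, still called. Without limma's mean-variance trend neither difference passed, at the same fold changes (adjusted p = 0.090 for wild-type and 0.080 for mutated CTCF). Both lines were 0.21 above the untreated control (adjusted p = 2.6e-07 and 2.9e-07), or 0.13 with equal totals, still called. Their direct difference was 2.2e-04 (95% interval -0.060 to 0.060). The summed stem cell markers were higher in the rescue lines, at 57664 to 61546 with wild-type and 57431 to 60165 with mutated CTCF, against 53116 to 54442 in the control with IAA and 50301 to 51171 without IAA. Single markers did not all follow the sum. Zfp42 had 10060 and 9982 normalized reads without IAA, 9043 and 8980 with IAA, 10741 and 10962 with wild-type CTCF and 9507 and 9499 with mutated CTCF, and Esrrb was also lower in both control libraries with IAA than in both without. Their part in the level of Tet1 was not tested.

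Tet3 (ENSMUSG00000034832.15, chromosome 6, 83362373 to 83459084) had 1113 and 1134 normalized reads without IAA, 1110 and 1132 with IAA, 1001 and 1107 with wild-type CTCF and 941 and 1071 with mutated CTCF. The replicates of the rescue lines lay further apart than those of the control. Tet3 was called lower with mutated CTCF than in the control with IAA (-0.16 on the log2 scale, SE 0.060, adjusted p = 0.037), and the value without mutated CTCF replicate 1 was -0.066 (adjusted p = 0.52), against -0.25 without replicate 2 (adjusted p = 0.0048). That call was kept in 12 of 18 alternatives and was lost without any 1 of the 4 control libraries. Against the untreated control it was -0.16 (adjusted p = 0.030), and -0.070 without mutated CTCF replicate 1 or -0.26 without its replicate 2 (adjusted p = 0.48 and 0.0036). With equal totals it was -0.25, still called. It was not called without either untreated control library (adjusted p = 0.11 and 0.17). With wild-type CTCF against the untreated control it was -0.094 (adjusted p = 0.21), and called lower after both rescalings and without wild-type CTCF replicate 2 (-0.17, adjusted p = 0.049). With IAA alone its change was -0.0038 (95% interval -0.13 to 0.12, adjusted p = 0.97).

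The 2 most abundant oxidation genes can also be set against each other within a library. Tet2 over Tet1 was 0.696 and 0.692 without IAA, 0.727 and 0.722 with IAA, 0.720 and 0.694 with wild-type CTCF and 0.612 and 0.599 with mutated CTCF, where it was lowest. Dnmt1 over Uhrf1 was 1.02 in both untreated libraries and 0.928 and 0.930 with IAA. It was 1.04 and 1.00 with wild-type CTCF and 0.874 and 0.886 with mutated CTCF, again the lowest.

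Tdg (ENSMUSG00000034674.18, chromosome 10, 82629828 to 82650799), the glycosylase that acts after oxidation, varied least. It had 914 and 960 normalized reads without IAA, 923 and 897 with IAA, 942 and 898 with wild-type CTCF and 978 and 995 with mutated CTCF. The highest library exceeded the lowest by a factor of 1.11. Mutated CTCF gave the highest values, yet none of the 6 comparisons passed. The estimate for mutated CTCF against the control with IAA was 0.12 (95% interval -0.0016 to 0.23, adjusted p = 0.12).

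A list of 60 genes that act with these enzymes was examined in the same fit, and 58 of them were tested. With IAA, 18 were higher and 14 lower (55.2%, against 37.7% of all tested genes), with a median log2 fold change of 0.0034 against -0.0017 over all tested genes. The median absolute log2 fold change of the list was smaller than that of all tested genes, at 0.151 against 0.195. By role, the 14 genes of base excision after oxidation had 2 higher and 7 lower, where 19.4% of all tested genes were higher and 18.4% lower. The 23 recruitment factors and partners had 11 higher and 4 lower, the 11 readers of methylated DNA 3 and 2, and the 10 methyl donor and 2-oxoglutarate genes 2 and 1. In the wild-type CTCF line, 24 were higher and 4 lower, and in the mutated CTCF line 17 were higher and 8 lower, each compared with the IAA-treated control. Over all tested genes 21.5% were higher and 1584 of 15818 lower in the former, and 22.0% and 12.4% in the latter. Between mutated and wild-type CTCF, 8 were higher and 21 lower, against 16.3% and 18.4% of all tested genes. The 11 readers had 1 higher and 6 lower there, the 23 recruitment factors and partners 2 and 10, and the 14 base excision genes 1 and 3. The 10 methyl donor and 2-oxoglutarate genes went the other way, with 4 higher and 2 lower. The list's medians in these comparisons were 0.098, 0.048 and -0.018, against 0.057, 0.055 and -0.0087 over all tested genes. Its median absolute values were 0.157, 0.116 and 0.166, against 0.175, 0.181 and 0.183. Compared with the untreated control, 29 were higher and 8 lower with wild-type CTCF, and 22 and 10 with mutated CTCF. The shares of all tested genes were 27.6% and 15.6% in the former, and 24.0% and 13.7% in the latter. The list's medians there were 0.13 and 0.11, against 0.053 and 0.052 over all tested genes. Its median absolute values were 0.204 and 0.192, against 0.220 and 0.191. The IAA count was 18 without untreated control replicate 2, 19 without untreated control replicate 1 and 21 without replicate 2 of the control with IAA. Without replicate 2 of the control with IAA the wild-type count was 16, and without its replicate 1 the mutated count was 16. The shares of all tested genes above are from all 8 libraries and do not apply to these reduced counts. Whether the list exceeds all genes in those fits was not tested.

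**Figure D5:**
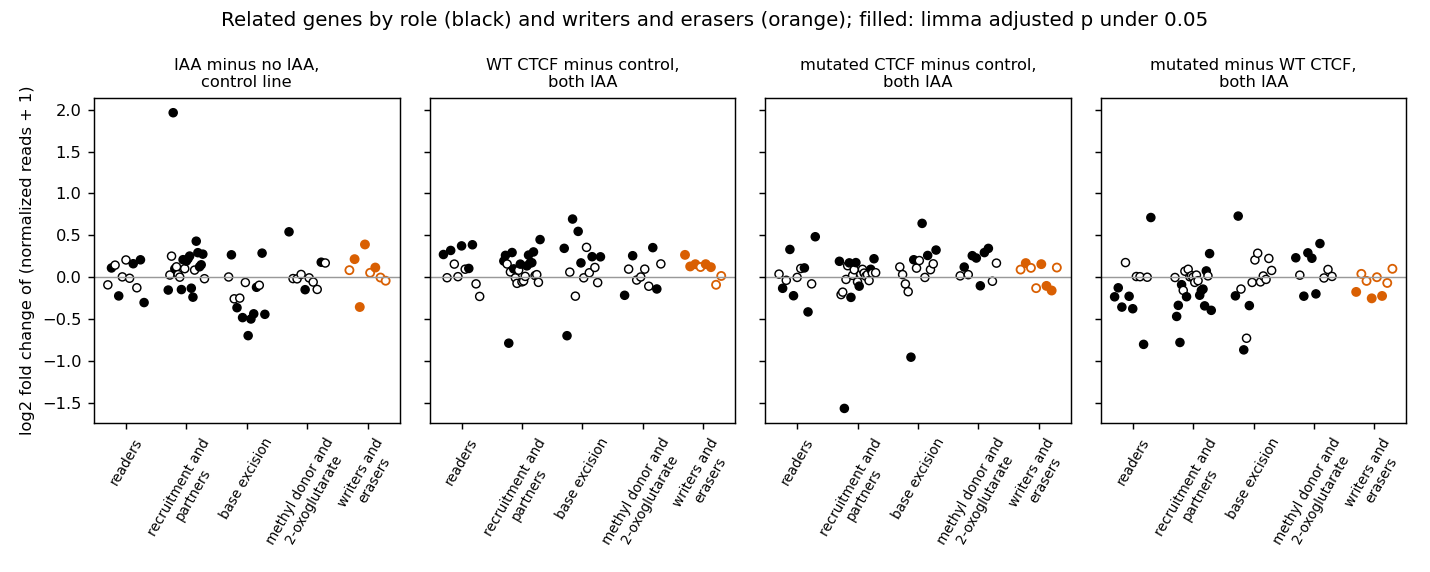
Log2 fold change of (normalized reads + 1) for 58 related genes by role (black) and for the 8 tested writers and erasers (orange) in 4 comparisons, each point 1 gene and filled where the adjusted p was under 0.05. Dppa3 is the highest point with IAA, at 1.96, and the lowest with mutated CTCF against the control with IAA, at -1.57.

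Of this list, the genes below had the most extreme fold changes among those called, with a mean of at least 50 and no overlap of libraries. Dppa3, which is known to keep UHRF1 from chromatin, had 20.1 and 35.3 normalized reads without IAA and 100.1 and 114 with IAA (log2 fold change 1.96, SE 0.22, adjusted p = 1.9e-09). It was at 65.6 and 57.8 with wild-type CTCF and at 39.7 and 31.6 with mutated CTCF (-0.79 and -1.57 against the control with IAA, adjusted p = 0.0060 and 4.6e-07). Ahcy, which clears S-adenosylhomocysteine, the product that inhibits methyltransferases, rose with IAA from 973 ± 12 to 1417 ± 19 (0.54, adjusted p = 3.7e-11). Against the control with IAA, Ahcy was lower with wild-type CTCF, at a mean of 1220 (-0.22, adjusted p = 0.0016), and not called different with mutated CTCF, at 1433 (0.016, adjusted p = 0.85). On the lower side with IAA were Hmces, which shields abasic sites in DNA, from 886 ± 53 to 634 ± 46 (-0.48, adjusted p = 9.7e-08), and the glycosylase Neil2, from 84.9 ± 1.9 to 60.4 ± 12 (-0.50, adjusted p = 0.020). Against the control with IAA, Hmces was higher with wild-type CTCF, at 926 ± 35 (0.55, adjusted p = 1.4e-08), and with mutated CTCF, at a mean of 732 (0.21, adjusted p = 0.011). Neil2 was higher with mutated CTCF, at 94.2 ± 10 (0.64, adjusted p = 0.0032), and its difference with wild-type CTCF, at a mean of 76.9, did not pass (0.36, adjusted p = 0.11).

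Several of the named genes differed between the CTCF forms. The readers Zbtb33, the Kaiso protein that binds methylated DNA, and Zbtb4 went opposite ways. Zbtb33 was at 245 and 244 normalized reads with wild-type and at 141 and 138 with mutated CTCF (-0.80 on the log2 scale, SE 0.11, adjusted p = 2.6e-07), and against the control with IAA (187 ± 14) it was higher with wild-type CTCF (0.39, adjusted p = 0.0066) and lower with mutated CTCF (-0.41, adjusted p = 0.0031). Zbtb4 was at 122 in both wild-type and at 203 and 198 in the mutated CTCF libraries (0.71, SE 0.12, adjusted p = 8.5e-06), and against the control with IAA (143 ± 1.7) it was higher with mutated CTCF (0.48, adjusted p = 0.0014) and not called different with wild-type CTCF (-0.23, adjusted p = 0.14). The cytidine deaminase gene Apobec1 was at 448 and 438 with wild-type and 727 and 742 with mutated CTCF (0.73, adjusted p = 1.4e-11). Its wild-type libraries were also below the control with IAA, at 719 in replicate 1 and 718 in replicate 2 (-0.70, adjusted p = 6.2e-11), from which mutated CTCF was not called different (0.032, adjusted p = 0.76). The stress-induced gene Gadd45b was at 147 and 166 with wild-type and 80.5 and 89.96 with mutated CTCF (-0.87, adjusted p = 5.1e-06). In the control with IAA it was at 95.3 and 96.8 (wild-type CTCF higher by 0.69, adjusted p = 1.9e-04, and mutated CTCF not called different at -0.17, adjusted p = 0.37).

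Genes whose pattern over the 8 libraries was most like that of a member were sought among 11852 genes with a mean of at least 50. For Dnmt3b, which had the widest range of group means among the tested members (0.51 on the log2 scale), these were Rpl6 (Pearson's r = 0.995), Lgals1 (0.993) and Huwe1 (0.982). For Dnmt3l, with the widest range of all 9 (1.72), they were Gm15097 (0.986), Lhfp (0.979) and Trp53rka (0.968). Each r is over 8 libraries that share groups and scaling, and the values of Dnmt3l rest on few reads.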

How the data were processed

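TT-seq labels new RNA with 4-thiouridine (15 min at 400 µM here) and captures it, per the labels' protocols. The authors deposited 1 table of normalized read counts, a signal per gene and library for 16940 genes. The submitters' processing notes name Trim Galore, STAR, featureCounts, DESeq2 and build mm10, with no versions, and the annotation release is not given in the sources used here. In each library 100% of deposited values were whole multiples of 1 step (within 0.05 of a step), and dividing by the step recovered whole reads in all libraries except mutated CTCF replicate 2. In mutated CTCF replicate 2 the step is 0.989, too near 1 for the values to be accepted as recovered reads, so its read numbers are estimates. The table had 0 columns from outside the series.

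Values were tested with limma 3.58.1 (R 4.3.3) on log2(value + 1), with 1 coefficient per group over all 8 libraries (4 residual degrees of freedom), a mean-variance trend and Benjamini-Hochberg adjustment at 0.05. A gene needed a mean of at least 10, which left 15818. All differences stated are of log2(value + 1), which understates changes of low genes. Positions and lengths are from GENCODE M21 on GRCm38, where 16917 gene IDs matched. Promoter windows matched the genome in 16 of 16 cases. Recovered reads were tested with edgeR 4.0.16 and DESeq2 1.42.0 in the 6 libraries of 3 groups only, leaving out the mutated CTCF group for that reason. The fit was tested on simulated data, but no result of that check is given here and no conclusion rests on it. All 9 members are named, and related genes were named as the 2 highest and 2 lowest fold changes among those called in each of 4 comparisons, with a mean of at least 50 and no overlap. Members and lists were chosen with earlier results of these data known. Deviations of same-numbered libraries from their group means correlated across genes at -0.022 to 0.028 over the pairs of groups.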

Additional observations from a re-analysis of the deposited data

Results flagged for a closer look

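The effects of the 2 CTCF lines, each against the control line with IAA, differed from one another at 3 of the 8 tested genes, by the direct limma test of mutated against wild-type CTCF, which called 34.7% of all tested genes, so the count is near that background. The log2 fold changes were -0.18 for Dnmt1, -0.25 for Dnmt3b and -0.22 for Tet2, with adjusted p-values of 0.0032, 0.0051 and 1.4e-07. Both libraries with mutated CTCF were below both with wild-type CTCF for each of the 3 genes. Without wild-type CTCF replicate 2 the values were -0.11 for Dnmt1 and -0.17 for Dnmt3b (adjusted p = 0.14 for both). Without mutated CTCF replicate 1 Dnmt1 was -0.11 (adjusted p = 0.15). Without limma's mean-variance trend Dnmt1 and Dnmt3b did not pass, at the same fold changes (adjusted p = 0.14 and 0.063). Tet2 passed in all 18 alternatives run.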

How the results depend on the processing

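Taking each gene, comparison and setting as 1 value, the 8 tested genes stayed on the same side of the threshold in 484 of 528 values under another setting and in 351 of 384 with a library left out. Among these, estimates that passed in neither fit turned sign in 9 (Tdg, Tet1 and Tet2) and 13 (also Tet3 and Uhrf1). The mean-variance trend mattered most. Without it limma called 2 genes for IAA (Dnmt3a and Dnmt3b), 0 for the wild-type line against the IAA-treated control (4 at an unadjusted p under 0.05; edgeR called 4 and DESeq2 2), 0 for mutated CTCF (2 at an unadjusted p under 0.05; no other tool was run), 1 for mutated against wild-type CTCF and 3 for mutated CTCF against untreated. Of the related genes it then called 19, 11, 10, 15 and 19. DESeq2 called 18 related genes for IAA and 14 for wild-type CTCF. Shares of all tested genes are given for the main fit only. The counts under other settings, of members and of related genes, are thus not set against all genes. For the wild-type line against the IAA-treated control, 3 members passed after median-of-ratios rescaling, 3 with equal totals and 3 with a replicate block plus that rescaling. With equal totals Tet2 in mutated CTCF against untreated was -0.072 in place of 0.012. The cause was not tested.

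Leaving out a library gave 4 to 4 members for IAA, 3 to 5 for wild-type and 1 to 4 for mutated CTCF against the control with IAA, 2 to 3 for mutated against wild-type CTCF, and 5 to 7 and 3 to 6 for wild-type and mutated CTCF against untreated. The related genes gave 18 to 34, 16 to 28, 16 to 26, 20 to 30, 27 to 39 and 25 to 33. No share of all tested genes is given for these reduced fits, so the ranges cannot be compared with all genes. The libraries share only a replicate number. With that number as a replicate block 5, 5, 4, 3, 6 and 6 members passed in the same order, and Tet1 was called for IAA (adjusted p = 0.04996). edgeR and DESeq2 were not run for the 3 comparisons with mutated CTCF. With 2 libraries a group, calls rest on a spread shared across genes, and Dnmt3l, with at most 12 reads, is limited by depth.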
